A study of Mus musculus with 2 samples.

Results

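The class I presentation genes described here were H2-K1, H2-D1, H2-T23, B2m, Tap1, Tap2 and Tapbp, 7 of the 54838 genes in the count tables of sciatic nerve macrophages (snMacs). They were chosen by name for their role in class I presentation, and each was read in all cells of the 2 libraries. CD64+ CD45int cells were sorted as YFP- and YFP+ from the pooled sciatic nerves of 19 male mice aged 10 to 12 weeks. All mice carried Flt3-Cre and a floxed YFP reporter, and no treatment is named for them. Flt3-Cre acts in blood progenitors, and the authors describe the strain as labelling those of fetal monocyte and adult stem cell origin and their progeny. YFP thus marks cells with such an origin in their past and cannot mark progeny in which the reporter was not recombined. Each sort gave 1 library, so no condition has a replicate and no difference between the libraries was tested. Intervals are 95% and cover counting error only.

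Class I molecules show peptides from inside a cell to CD8 T cells and natural killer cells. A heavy chain (H2-K1 or H2-D1 in the classical set) pairs with beta-2 microglobulin, the product of B2m, and is loaded in the endoplasmic reticulum with peptides that the TAP1 and TAP2 transporter brings in and that tapasin, the product of Tapbp, helps to select. H2-T23 encodes the nonclassical heavy chain Qa-1, which shows leader peptides of other class I chains to the receptors CD94 and NKG2A. The pathway is widely expressed and is known to be raised by interferons.

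A cell was a barcode with at least 500 UMIs and 200 genes. This gave 1045 YFP- cells with 2418044 UMIs and 4053 YFP+ cells with 6747554 UMIs, with medians of 2233 and 1484 UMIs per cell, and 7 barcodes were called in both. The macrophage list, which includes Csf1r, Adgre1 and C1qa, was at 31695 and 32473 CPM (UMIs per 1000000 UMIs of the summed cells), with 0 of its 12 genes at 0. All 5 natural killer genes were at 0 in the YFP- and 4 of 5 in the YFP+ library, and Cd3e and Cd8a were at 0 in both. Schwann cell genes summed to 741 and 681 CPM. Sums over mural genes were 9.10 and 121 CPM and over fibroblast genes 71.5 and 171 CPM.

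H2-K1, H2-D1, H2-T23, Tap1, Tap2 and Tapbp lie on chromosome 17 within 2.12 Mb, between 33915899 and 36032855 of GRCm38, and B2m lies on chromosome 2 (122147686 to 122153083). H2-K1 is at chr17:33996017-34000347 on the minus strand, H2-D1 at chr17:35262730-35267499 on the plus strand and H2-T23 at chr17:36029773-36032855 on the minus strand. Tap1 (chr17:34187553-34197225) and Tap2 (chr17:34203527-34216321) are on the plus strand, as is Tapbp (chr17:33915899-33929292). All are protein coding in GENCODE M21. The heavy chain genes are close relatives, so reads can be shared. Of the 50-base words in the last 500 bases of their coding transcripts, at most 22.4% for H2-K1, 9.65% for H2-D1 and 14.4% for H2-T23 occurred in another H2 gene, against 0 for B2m, Tap1, Tap2 and Tapbp. Words found in any other gene made up at most 38.1% for H2-T23, 15.5% for Tapbp and 5.54% for Tap1, and 0 for B2m and Tap2. Levels of the 3 heavy chains, Tapbp and Tap1 are uncertain to the extent that counting dropped or split such reads.

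The 250 bases before the RefSeq start sites (GRCm38.p6) of H2-K1, H2-D1 and B2m are shown because these 3 members gave the most UMIs and each window holds a pair of motifs. Capitals mark the consensus of sites bound by NF-kappaB, and GAAANNGAA or TTTCNNTTC, cores of sites bound by interferon regulatory factors, each searched on both strands with overlapping matches joined. The patterns were chosen after the sequences were seen. Windows are chr17:34000348-34000597 (minus strand) for H2-K1, chr17:35262844-35263093 (plus strand) for H2-D1 and chr2:122147437-122147686 (plus strand) for B2m.
H2-K1: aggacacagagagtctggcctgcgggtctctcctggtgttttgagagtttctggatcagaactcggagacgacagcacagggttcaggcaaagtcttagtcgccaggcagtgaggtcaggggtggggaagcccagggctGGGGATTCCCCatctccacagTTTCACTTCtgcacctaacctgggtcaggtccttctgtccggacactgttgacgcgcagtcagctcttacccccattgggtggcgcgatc
H2-D1: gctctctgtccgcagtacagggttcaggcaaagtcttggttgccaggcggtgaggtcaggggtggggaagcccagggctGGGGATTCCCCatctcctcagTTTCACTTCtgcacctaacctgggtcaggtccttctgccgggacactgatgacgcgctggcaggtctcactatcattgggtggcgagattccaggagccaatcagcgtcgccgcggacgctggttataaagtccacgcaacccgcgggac
B2m: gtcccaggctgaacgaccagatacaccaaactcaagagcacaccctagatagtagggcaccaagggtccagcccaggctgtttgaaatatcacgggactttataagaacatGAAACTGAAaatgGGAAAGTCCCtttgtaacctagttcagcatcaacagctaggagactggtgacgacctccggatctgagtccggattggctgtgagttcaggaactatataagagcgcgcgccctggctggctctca

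In H2-K1 the kappaB match ended 101 and the interferon core 82 bases before the start, and in H2-D1 they ended 161 and 142 bases before it, with the same letters and the same spacing. In B2m the order was the opposite, with the interferon core ending 131 and the kappaB match 117 bases before the start. Of 32817 promoter windows of this length, 9.55% held the kappaB consensus and 12.5% the interferon core. H2-T23 held the interferon core alone, 123 to 115 bases before its start. Neither was found in the windows of Tap1 and Tapbp, which says only that these letters are not in the windows. CCAAT, the core of sites bound by nuclear factor Y, was present in the windows of all 6 members with an entry and in 33.8% of all windows. Tap2 had no entry in the table. A second H2-K1 start 14 bases downstream held the same motifs.

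In the summed counts of all cells, the members were at close levels in YFP- and YFP+ snMacs. The difference changed with the depth of the cells, as given below. B2m, the light chain, was at 2029 CPM (4906 UMIs) in YFP- and 2010.1 CPM (13563 UMIs) in YFP+ cells. H2-D1 was at 1069 and 1182 CPM and H2-K1 at 361 and 330.0 CPM, so the 2 classical heavy chains did not share a direction in the summed counts. H2-T23 was at 119.9 and 133 CPM. The loading genes gave fewer counts. Tapbp was at 139 and 115 CPM, Tap2 at 34.3 and 39.9 CPM, and Tap1 at 28.1 and 20.9 CPM from 68 and 141 UMIs. Counts come from the 3′ ends of transcripts, so levels are compared between cells and not between genes.

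**Figure D1:**
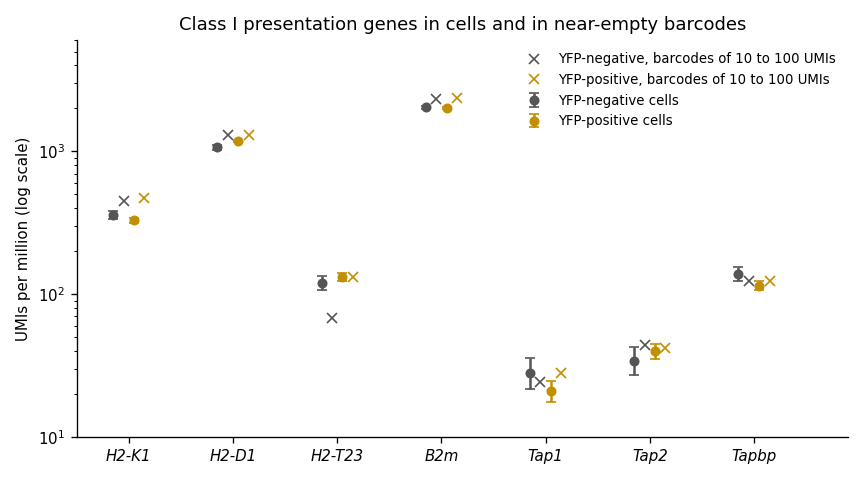
Levels of the 7 genes on a log scale of CPM. Filled points are summed cells of the YFP- (grey) and YFP+ (gold) library with exact Poisson 95% intervals, and crosses are barcodes of 10 to 100 UMIs, which hold free RNA. The points of both libraries lie close together for each gene, and the crosses of H2-K1, H2-D1 and B2m lie above the points.

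On the log2 scale (CPM plus a pseudocount of 1, YFP+ over YFP-) H2-D1 differed by 0.15 (0.08 to 0.21), H2-K1 by -0.13 (-0.24 to -0.01) and Tapbp by -0.27 (-0.46 to -0.09). With every cell thinned to 500 UMIs the H2-D1 ratio was -0.023 (-0.15 to 0.11), and with equal weight for each cell -0.020, so its direction depended on how cells were weighted. The H2-K1 ratio was -0.34 (-0.56 to -0.12) with cells thinned to 500 UMIs and -0.09 (-0.21 to 0.03) from 1000 UMIs per cell. H2-T23 (-0.16) and Tap2 (-0.20) also turned on thinning, while from 1000 UMIs per cell H2-T23 was 0.25 (0.05 to 0.46). In the main setting some intervals held 0. The intervals of B2m (-0.01, from -0.06 to 0.03), H2-T23 (0.15, from -0.04 to 0.34), Tap2 (0.21, from -0.14 to 0.59) and Tap1 (-0.41, from -0.86 to 0.01) held 0. Of the 7 members, 0 were 1.5-fold higher or lower in YFP+ cells, where 1.54% of 5531 genes of at least 20 CPM were higher and 5.77% lower by that fold. The interval lay above 0 for 1 member and below 0 for 2, against 11.6% and 13.8% of all genes. The median log2 ratio was -0.01 for the members and -0.00 for all genes. For the class II list, which includes H2-Aa, H2-Ab1 and Cd74, it was 0.34, with the interval above 0 for 6 of 7 genes of at least 20 CPM.

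H2-D1 made up 74.8% (73.3 to 76.2, exact binomial) of the UMIs of both classical heavy chains in YFP- and 78.2% (77.4 to 79.0) in YFP+ cells. H2-K1 and H2-D1 together made up 18.8% (18.2 to 19.3) and 16.1% (15.9 to 16.4) of UMIs when counted with H2-Aa, a class II chain. Heavy chain UMIs therefore took a smaller share beside H2-Aa in YFP+ cells, where H2-Aa was at 7854 CPM against 6190.1 CPM in YFP- cells. Tap1 made up 45.0% (36.9 to 53.3) and 34.4% (29.8 to 39.2) of Tap1 and Tap2 UMIs, with intervals that overlap.

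Free RNA held the members at levels like those of the cells. In barcodes of 10 to 100 UMIs, the YFP- library had H2-K1 at 446 CPM and the YFP+ library at 469.9 CPM, H2-D1 at 1309 and 1299.7 CPM, and B2m at 2321 and 2378 CPM, all above the cells. H2-T23 was at 68.2 CPM in these barcodes of the YFP- library, below its 119.9 CPM in cells, and at 132 CPM in those of the YFP+ library. Tapbp was at 123 CPM in both. Nearly all nucleated cells express class I genes, so no cell type that should lack them was at hand for comparison.

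After every cell was thinned to 500 UMIs, B2m had a UMI in 58.4% of YFP- (55.3 to 61.4) and 59.2% of YFP+ cells (57.7 to 60.7), and H2-D1 in 40.4% and 41.0%. H2-K1 had one in 17.8% (15.5 to 20.3) and 14.9% (13.8 to 16.0). If all 500 UMIs of a cell were free RNA, a B2m UMI would be seen in 68.7% and 69.6% of cases. For H2-K1 these values would be 20.01% and 20.9%. The shares in cells were at or below these values. Free RNA held these genes at levels like those of the cells, so the comparison cannot show which cells expressed them. H2-T23 in YFP- cells was at 6.60% (5.17 to 8.28) against 3.35% from free RNA, and in YFP+ cells at 6.22% against 6.40%. Tapbp was at 6.99% and 5.85% and Tap2 at 2.20% and 1.97%, each with the free RNA value inside its interval. Tap1 was at 1.34% (0.734 to 2.24) in YFP- cells, an interval that held the free RNA value, and at 0.962% (0.685 to 1.31) in YFP+ cells, below the 1.39% from free RNA. Without thinning, the shares for B2m were 90.7% and 85.1% and for H2-K1 48.3% and 37.0%. At least 1 member was seen in 97.9% of YFP- and 94.4% of YFP+ cells at full depth, with medians of 7 and 5 member UMIs per cell.

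The difference between the libraries was not the same at all depths. In cells of under 1000 UMIs the level of H2-K1 was 712 CPM for YFP- (150 cells) and 386 CPM for YFP+ (1184 cells). From 1000 to under 2000 UMIs it was at 435 and 340.2 CPM, and from 2000 UMIs at 322 and 309.7 CPM. H2-K1 was thus lower in deeper cells of both libraries, with the larger difference in the YFP- library. H2-D1 was at 1768, 1149.8 and 1008 CPM over the 3 ranges in YFP- cells but at 1059, 1149.9 and 1233 CPM in YFP+ cells. H2-T23 was at 237, 149.6 and 106 CPM in YFP- and 112, 134 and 138 CPM in YFP+ cells, so for both genes the library with the higher level changed with depth. Tapbp in YFP- cells was at 281, 159 and 126 CPM.

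**Figure D2:**
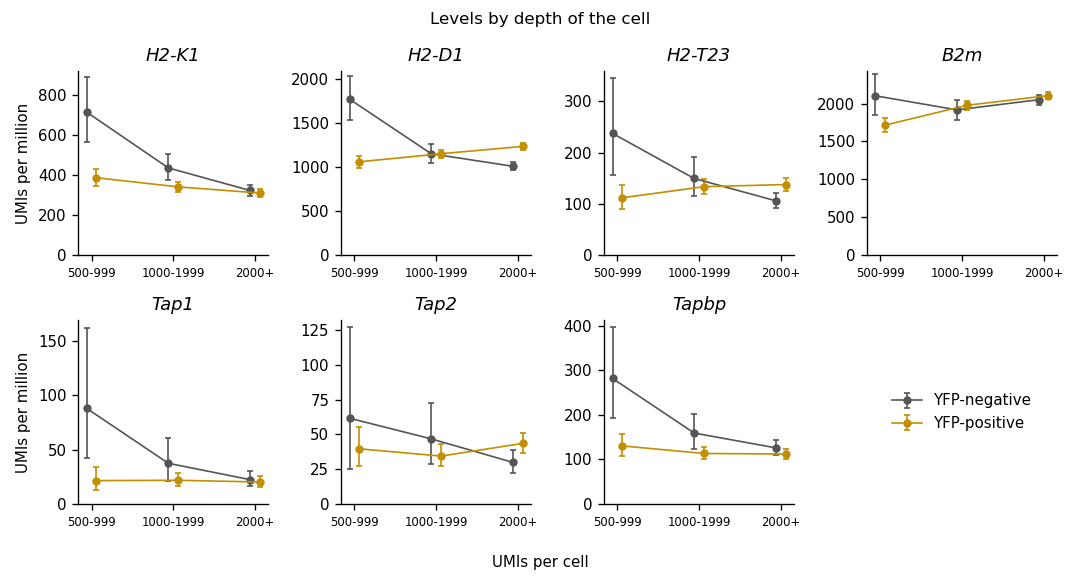
Levels of each gene in CPM in cells of 500 to under 1000, 1000 to under 2000 and at least 2000 UMIs, with exact Poisson 95% intervals, for the YFP- (grey) and YFP+ (gold) library. In the shallowest cells the YFP- points lie above the YFP+ points for all 7 genes, and for H2-D1, H2-T23, B2m and Tap2 the order is the opposite in the deepest cells.

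In the shallowest cells the log2 ratio of YFP+ over YFP- was -0.88 (-1.24 to -0.52) for H2-K1, -0.74 (-0.96 to -0.51) for H2-D1, -1.08 (-1.71 to -0.41) for H2-T23 and -1.11 (-1.69 to -0.50) for Tapbp. In the deepest cells it was -0.06 (-0.20 to 0.09) for H2-K1, 0.29 (0.21 to 0.37) for H2-D1, 0.37 (0.14 to 0.62) for H2-T23 and -0.17 (-0.40 to 0.07) for Tapbp. B2m moved least, from -0.29 (-0.49 to -0.09) to 0.04 (-0.02 to 0.09). Tap1 went from -1.98 (-3.21 to -0.77), with 10 YFP- and 19 YFP+ UMIs, to -0.14 (-0.72 to 0.44). Tap2 went from -0.62 (-1.83 to 0.78) to 0.53 (0.09 to 1.01). RNA of other kinds moved with depth in the same cells. Schwann cell genes summed to 4080 CPM in the shallowest and 508 CPM in the deepest YFP- cells, and to 1563 and 521 CPM in YFP+ cells. Mitochondrial genes summed to 28096 and 8952 CPM in YFP- and to 16301 and 9386 CPM in YFP+ cells. The shallowest cells also lay in different clusters (described next): cluster 4, whose first leading genes were mt-Nd4l and mt-Co2, held 52% of those in the YFP- and 15.5% in the YFP+ library, and cluster 0 held 7.33% and 48.9%. Shallow cells of cluster 4 had H2-D1 at 1920.2 CPM for YFP- and 1655 CPM for YFP+, and those of cluster 0 at 794 and 678 CPM. H2-K1 was at 861 and 433 CPM in the former and 227 and 259 CPM in the latter, with 2 UMIs behind the value of 227 CPM. The part of these differences in the members' levels was not tested. The ranges were chosen after the values were seen.

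Cells of both libraries were grouped into 10 clusters on genes other than the members and other class I genes. Because the cells share a library and were clustered on their own counts, levels by cluster are descriptions. Cluster 6 was interferon-like, led by Oasl2, Slfn5 and Rtp4. Its 149 cells held the highest B2m level of the 10 clusters, 3679 CPM in YFP- (3302 to 4087) and 3169 CPM in YFP+ cells (2918 to 3436), where all other cells were at 1962 and 1977 CPM. H2-T23 was at 286 and 313 CPM in cluster 6 and at 113 and 128 CPM in other cells. Tapbp was at 286 and 199.7 CPM (133 and 112 CPM in other cells). Tap1 was at 95.4 and 48.6 CPM from 9 UMIs in each library (25.4 and 20.1 CPM in other cells). Tap2 was not above other cells, at 31.8 and 32.4 CPM from 3 and 6 UMIs against 34.4 and 40.1 CPM. High Tapbp and Tap1 were not particular to cluster 6. Cluster 4, with interferon-response genes at 1142 CPM, had Tapbp at 206 and 185 CPM and Tap1 at 40.4 and 49.8 CPM. The classical heavy chains stood out less in cluster 6. H2-D1 was at 1474 and 1652 CPM, and H2-K1 at 413 (294 to 565) and 443 CPM (352 to 549), against 358 and 327 CPM in other cells.

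H2-K1 had its highest level elsewhere, in cluster 7, which was led by Cd209f, Retnla and Ednrb and carries no cell type name here because its leading genes include as many of another marker list. H2-K1 was at 833 CPM (639 to 1068, 48 cells) in the YFP- and 793 CPM (638 to 973, 81 cells) in the YFP+ library, where other cells were at 346 and 322 CPM. H2-D1 there was at 1491 and 1341 CPM and B2m at 2378 CPM in both libraries. H2-K1 thus stood farther from other cells than H2-D1 and B2m did. H2-D1 made up 63.4% of the UMIs of both classical heavy chains in cluster 7, the lowest of the 10 clusters, against 80.2% in the Ccr2/S100a-like cluster 2. The median depth of cluster 7 was 1172 UMIs, and by depth its H2-K1 level was 921, 919 and 747 CPM in YFP- and 1442, 707 and 525 CPM in YFP+ cells. At each depth this was above all cells of the library, with 14 to 37 UMIs behind each value. Summed class II genes were at 22181 CPM in cluster 7 and 63057 CPM in cluster 2. Interferon-response genes summed to 3508 CPM in cluster 7, below the 6624 CPM of cluster 6 and above the other 8 clusters.

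The cycling-like cluster 9, led by Top2a, had 74 cells with H2-D1 at 1980.4 CPM (1625 to 2391) in YFP- and 1510.0 CPM (1338 to 1698) in YFP+ cells, with H2-K1 at 715 and 538 CPM and B2m at 3172 and 2455 CPM. H2-T23 did not stand above other cells in both libraries, at 183 CPM from 10 and 70.6 CPM from 13 UMIs. Class II genes summed to 25796 CPM, so the cells of this cluster had classical class I levels above and class II levels below those of most clusters. Cluster 0, the largest with 1131 cells and a median of 973 UMIs, had H2-D1 at 836 and 822 CPM and the lowest H2-T23 level, 85.4 CPM over both libraries. Cluster 8, in which the mural cell genes Acta2 and Tagln were among the leading genes, had macrophage genes at 14543 CPM and the lowest B2m level, 1561 CPM. From lowest to highest cluster the level differed 2.14-fold for B2m, 2.51-fold for H2-D1, 3.37-fold for H2-K1 and 3.56-fold for H2-T23.

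**Figure D3:**
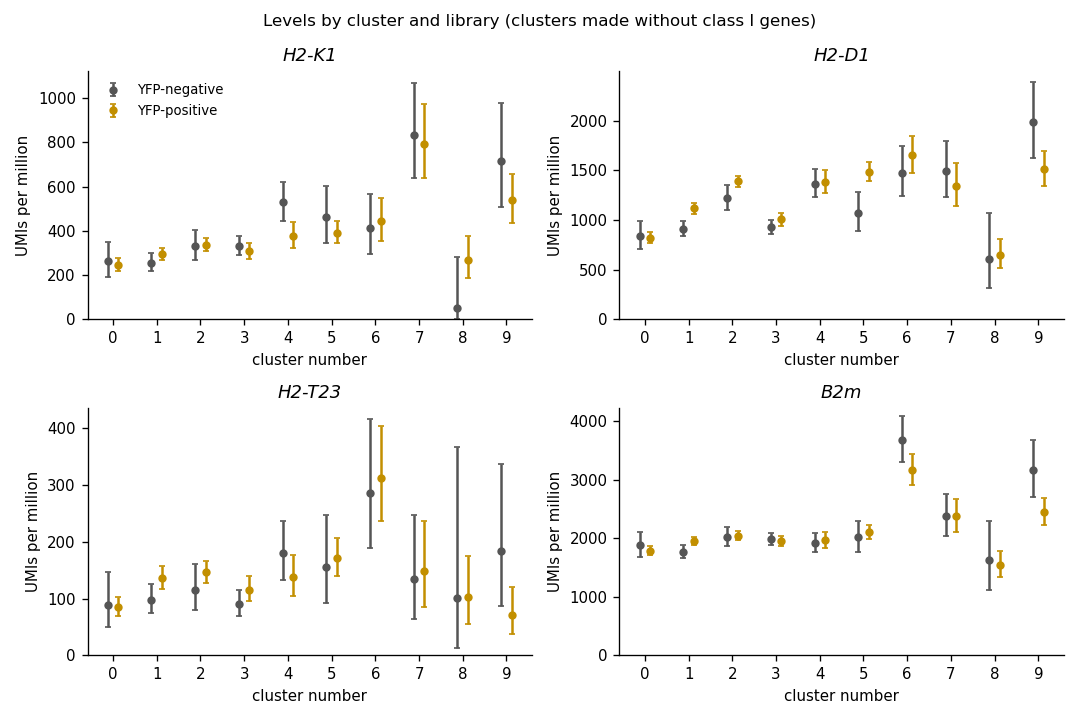
Levels of H2-K1, H2-D1, H2-T23 and B2m in CPM by cluster, with exact Poisson 95% intervals, for the YFP- (grey) and YFP+ (gold) library. H2-K1 is highest in cluster 7 and B2m and H2-T23 in cluster 6 in both libraries. Clusters 6, 7 and 9 hold 43, 48 and 13 YFP- and 106, 81 and 61 YFP+ cells.

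Cells were also grouped within each library by interferon-response genes. Of cells thinned to 500 UMIs, 74 YFP- (7.08%) and 269 YFP+ cells (6.64%) had 3 or more UMIs of these genes and were set against the 559 and 2244 cells with none. B2m was at 3241 CPM in high YFP- cells and 1893 CPM in YFP- cells with none, and at 2512 and 1846 CPM in YFP+ cells. H2-D1 was at 1416 and 1238 CPM in YFP- and 1567 and 1086 CPM in YFP+ cells. H2-K1 was at 218 and 458 CPM in YFP- but 539.9 and 302 CPM in YFP+ cells, so its direction differed between the libraries. Only 8 UMIs lay behind the value of high YFP- cells, and with all UMIs of the same cells H2-K1 was at 381 and 369 CPM.

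In YFP+ cells the log2 ratio of high over none was 0.84 (0.45 to 1.21) for H2-K1, 0.53 (0.31 to 0.74) for H2-D1, 0.44 (0.27 to 0.61) for B2m and 0.97 (0.34 to 1.57) for Tapbp, and 4 of 7 members had an interval above 0 against 3.3% of all genes, with 0 below 0 (2.32%). With cells of at least 1000 UMIs thinned to that depth the H2-K1 ratio was 0.23 (-0.05 to 0.52), so its interval held 0 there. H2-T23 (0.65, from -0.01 to 1.27) and Tap1 (1.25, from -0.49 to 2.80) had intervals that held 0. In YFP- cells B2m was 0.78 (0.48 to 1.07), the 1 member with an interval above 0 (1.97% of all genes), and H2-K1 was -1.07 (-2.31 to -0.05), the 1 with an interval below 0 (0.663%). With all UMIs of the same cells the ratio of H2-T23 was 1.10 (0.56 to 1.62) in YFP- and 0.92 (0.61 to 1.23) in YFP+ cells. Intervals are narrower for genes with more UMIs, as most members have. The median ratio of the members was 0.52 in YFP- and 0.65 in YFP+ cells, and that of all genes -0.07 and -0.01. RNA of other cell types summed to 1027 CPM in high YFP- cells and 2061 CPM in YFP- cells with none, and to 1948 and 1992 CPM in YFP+ cells.

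H2-D1, H2-T23 and B2m were also higher in cells with more class II RNA. Between the 1050 YFP+ cells highest and the 1020 lowest in class II UMIs, H2-D1 was at 1800.3 and 896 CPM, H2-T23 at 204 and 91.8 CPM, H2-K1 at 453 and 301 CPM and B2m at 2584 and 1886 CPM. Tapbp was at 145 and 148 CPM, so this loading gene was at about the same level in both. In YFP- cells (275 and 274 cells) H2-D1 was at 1605 and 1109 CPM, H2-T23 at 245 and 111 CPM and B2m at 2609 and 2084 CPM, while H2-K1 was at 474 and 503 CPM.

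**Figure D4:**
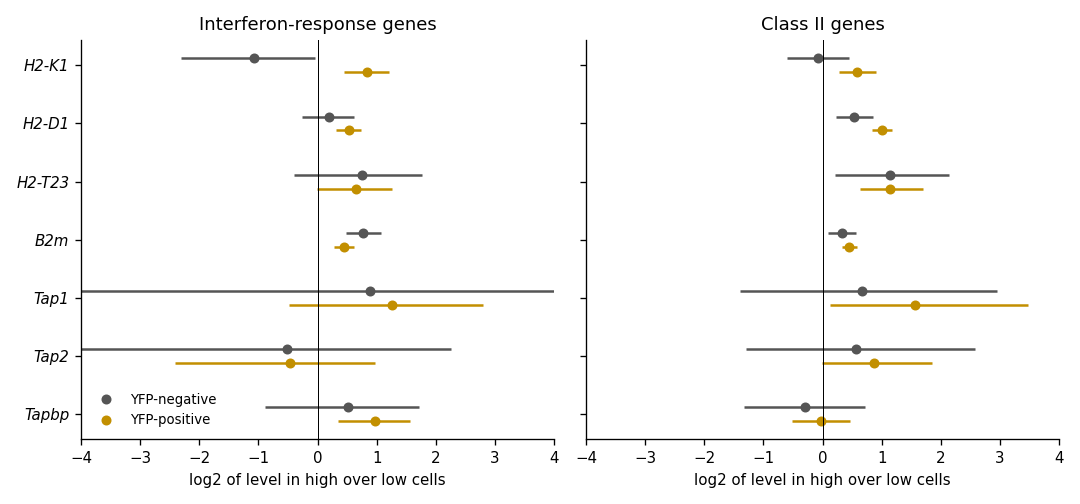
Log2 ratio of each gene's level between cells with 3 or more and with 0 UMIs of interferon-response genes (left) and between cells highest and lowest in class II genes (right), with 95% counting intervals clipped at -4 and 4, for YFP- (grey) and YFP+ (gold) cells. For H2-K1 the interferon ratios of the libraries lie on opposite sides of 0, and H2-D1, H2-T23 and B2m lie right of 0 in both panels, some with intervals that cross it.

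The log2 ratio of high over low class II cells was 1.01 (0.84 to 1.17) for H2-D1, 1.15 (0.63 to 1.69) for H2-T23, 0.59 (0.28 to 0.90) for H2-K1, 0.45 (0.33 to 0.58) for B2m and 1.57 (0.13 to 3.48, from 5 and 15 UMIs) for Tap1 in YFP+ cells. With all UMIs of the same cells Tap1 was 0.58 (-0.17 to 1.42) and its interval held 0. The interval lay above 0 for 5 of 7 members against 5.72% of all genes, and below 0 for 0 (8.01%). Tap1, among these 5, did not reach the 20 CPM asked of all genes. In YFP- cells it lay above 0 for 3 of 7 (2.49% of all genes) and below 0 for 0 (3.7%), with 0.53 (0.22 to 0.85) for H2-D1, 1.14 (0.21 to 2.14) for H2-T23 and 0.32 (0.09 to 0.56) for B2m. Low class II cells were not alike in other ways. RNA of other cell types summed to 4109 CPM in low and 1149 CPM in high YFP- cells and to 3773 and 1168 CPM in YFP+ cells, and median depths in YFP+ cells were 1196 and 1660.5 UMIs. Without cells that had 3 or more such UMIs, an alternative chosen after the data were seen, all 7 ratios in YFP+ and in YFP- cells stayed within their intervals.

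Early-response genes such as Fos and Jun, which are known to be induced when tissue is dissociated, moved with members in a way that depended on thinning depth. B2m was at 1690.3 CPM in the 291 highest and 2384 CPM in the 346 lowest YFP- cells, a log2 ratio of -0.50 (-0.73 to -0.26) and the 1 member below 0 (1.66% of all genes), with 0 above (2.85%). In YFP+ cells it was at 1917 and 2090.4 CPM, a ratio of -0.12 (-0.24 to -0.01) and again the 1 below 0 (4.23%). Tap2 was at 55.8 CPM from 32 UMIs and 16.0 CPM from 10 UMIs in YFP+ cells, a ratio of 1.74 (0.74 to 2.99) and the 1 above 0 (4.96%). With cells thinned to 1000 UMIs the YFP- ratios were -0.69 (-1.13 to -0.26) for H2-K1, -0.53 (-0.79 to -0.27) for H2-D1 and -0.33 (-0.52 to -0.14) for B2m. The share of all genes with an interval below 0 was not taken at 1000 UMIs, so these calls have no background. Only the 895 YFP- and 2869 YFP+ cells with at least 1000 UMIs enter there, so the set of cells changed along with the depth. At that depth in YFP+ cells H2-K1 was -0.34 (-0.60 to -0.08), B2m 0.012 (-0.08 to 0.11) and Tap2 0.28 (-0.53 to 1.11), so the calls of B2m and Tap2 were lost. With all UMIs of the same cells Tap2 was 0.72 (0.26 to 1.22).

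Counts of H2-D1, B2m and H2-K1 varied more between cells than a Poisson count, for which the variance over the mean is about 1. The variance over the mean of thinned counts was 1.36 in YFP- and 1.25 in YFP+ cells for H2-D1, 1.35 and 1.15 for B2m and 1.203 and 1.10 for H2-K1. It was 1.11 and 1.03 for H2-T23 and from 0.988 to 1.06 for Tap1, Tap2 and Tapbp. Across 1045 YFP- and 4053 YFP+ cells, Pearson's r of thinned counts was 0.19 and 0.13 between H2-K1 and H2-D1, 0.17 and 0.12 between H2-D1 and B2m and 0.11 and 0.06 between H2-K1 and B2m. All other pairs were between -0.04 and 0.06. These cells share a library and a thinned depth, and in such sparse counts r this small is a description only. The genes most like H2-D1 in both libraries, out of 2633, were C1qa, Cd74, Lyz2, H2-K1 and H2-Ab1, with the lower r from 0.12 to 0.15. Those most like B2m were H2-D1, Lyz2, Cst3, C1qb and Ly6e, with the lower r from 0.09 to 0.12.

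In the summed counts, other genes of the pathway were at close levels in YFP- and YFP+ cells. Of all genes of at least 20 CPM, 11.6% had an interval above 0 and 13.8% below 0. A count of 1 gene among 9 or 10 is near these shares. Of 17 other class I genes 4 passed 20 CPM, Fcgrt, the neonatal Fc receptor (360 and 333 CPM), H2-M3 (55.8 and 47.6 CPM), H2-Q4 (32.3 and 25.6 CPM) and H2-T22 (24.8 and 25.8 CPM), and 0 of these intervals excluded 0. Of 12 loading and trimming genes 10 passed, with Hspa5, an endoplasmic reticulum chaperone (238 and 272 CPM), the 1 with an interval above 0 (log2 0.19, from 0.06 to 0.33), and Pdia3 (239.9 and 255.5 CPM), Sec61b (229.9 and 242 CPM) and Calr (219 and 217 CPM) next to it. All 10 proteasome genes passed, and Psmb6, a standard proteasome subunit (136 and 157 CPM), was the 1 above 0 (log2 0.20). Pomp, an assembly factor, was at 275 and 264 CPM, Psmb8, an immunoproteasome subunit, at 183 and 199.9 CPM and Psme1 at 161 and 176 CPM. Of 16 regulators 9 passed. Irf2 (182 and 207 CPM) had an interval above 0 and Irf1 (32.3 and 23.9 CPM, log2 -0.42, from -0.83 to -0.03), named after its value was seen, had one below 0. Irf8 was at 189 and 184 CPM, Nfkb1 at 44.7 and 49.4 CPM and Creb1 at 41.4 and 41.6 CPM.

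Of 6 receptor genes 4 passed, and the interval lay above 0 for 2 of them (11.6% of all genes). Pilra was the 1 gene of these 5 lists with a difference of 1.5-fold or more, at 19.0 and 32.3 CPM (log2 0.73, from 0.30 to 1.26). Of all genes 1.54% were higher and 5.77% lower by that fold. Pilra encodes an inhibitory receptor of myeloid cells whose known ligands are proteins other than class I molecules. Pirb, which does bind class I molecules, was at 127 and 135 CPM. Lilrb4a was at 62.0 and 76.5 CPM (log2 0.30, from 0.04 to 0.57) and Lilr4b at 95.5 and 81.8 CPM.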

How the data were processed

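Single-cell RNA of YFP- and YFP+ snMacs was captured on the 10x Chromium v2 platform, 1 library each. Each deposited matrix holds the raw UMI counts of 1 library, made by the authors with Cell Ranger on GRCm38. The submitters' notes name version 3.0.2, and the annotation release is not given in the sources used here. The counts are unfiltered, so cells were called here at 500 UMIs and 200 genes. Doublets were not called, and leaving out the top 1% of cells by UMIs moved no ratio between the libraries beyond its interval. Levels are UMIs per 1000000 summed UMIs (CPM) with Poisson intervals. For members in cells grouped by interferon-response, class II or early-response genes, the summed UMIs leave out the genes of the grouping list. For log2 ratios 1 CPM was added to both levels, with exact binomial intervals. A count of 0 (3 counts) would allow 1.24 CPM for YFP- and 0.445 CPM for YFP+ cells. Genes compared across all genes had at least 20 CPM.

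Cells were thinned to 500 UMIs for shares, correlations and groups. The alternative at 1000 UMIs kept only the 895 YFP- and 2869 YFP+ cells with at least that many. Clusters came from scanpy 1.11.5 and leidenalg 0.10.2 (2000 variable genes, 20 components, resolution 0.8), and were named only where markers of 1 list led. Python 3.11.15, numpy 2.4.6, scipy 1.17.1, pandas 2.3.3 and matplotlib 3.10.9 were used, and the ratio and its interval were tested on simulated data. With 1 library per condition no test was made. Members and lists were chosen with earlier results of these data known. Named pathway genes are those 1.5-fold apart and the 4 highest of each list, and genes most like a member are the 5 with the highest lower correlation of the libraries. Alternatives covered cell calling, thinning depth, weighting, free RNA, totals, thresholds and cluster resolution. Promoters are from RefSeq tables and matched 6 of 7 members.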

Additional observations from a re-analysis of the deposited data

Results flagged for a closer look

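H2-K1 was on opposite sides of 0 in the 2 libraries when cells high in interferon-response genes were set against cells with none, at a log2 ratio of -1.07 in YFP- and 0.84 in YFP+ cells. The difference was not tested, since each condition is 1 library. The YFP- value rests on 8 UMIs in 74 cells. It was 0.05 (-0.35 to 0.43) with all UMIs of the same cells and 0.03 (-2.27 to 1.61) with high set at 5 UMIs. With cells thinned to 1000 UMIs it was 0.43 (0.0011 to 0.87), so under these alternatives the opposite sides of 0 were not kept.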

How the results depend on the processing

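No paired analysis was possible because each condition is 1 library. Of 241 values under alternatives, 182 stayed within the counting interval of the value reported (or, for a count of genes, within 1.5 times) and the others did not. Of 203 log2 ratios 26 changed sign, 6 of them from a value whose interval lay away from 0, while 10 intervals that lay away from 0 took it in and 14 that held 0 left it. The cause was not tested for any of them. Between the libraries (log2, YFP+ over YFP-), with cells thinned to 500 UMIs H2-K1 was -0.34, H2-D1 -0.023, H2-T23 -0.16 and Tap2 -0.20, and with equal weight for each cell H2-K1 was -0.29, H2-D1 -0.020 and H2-T23 -0.11, so H2-D1, H2-T23 and (on thinning) Tap2 changed direction. The interval of H2-K1 held 0 from 1000 UMIs (-0.09, from -0.21 to 0.03) and without cells with RNA of other cell types (-0.11, from -0.23 to 0.0037), and that of Tapbp on thinning (-0.24, from -0.61 to 0.15). From 1000 UMIs per cell H2-D1 was 0.22. Genes 1.5-fold apart numbered 404, 4099 without a filter on level and 181 from 50 CPM.

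Shares of cells with a UMI follow depth by construction. Without thinning (YFP-, then YFP+) they were 48.3% and 37.0% for H2-K1, 81.4% and 70.4% for H2-D1, 22.3% and 18.3% for H2-T23, 90.7% and 85.1% for B2m, 6.32% and 3.40% for Tap1, 6.70% and 6.29% for Tap2 and 26.3% and 16.5% for Tapbp. At 300 UMIs they were 11.4% and 9.52%, 28.6% and 27.8%, 4.50% and 4.39%, 42.8% and 42.5%, 0.670% and 0.543%, 1.24% and 1.33%, and 4.21% and 3.58%, in the same order.

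For interferon-response groups in YFP- cells, H2-K1 was 0.43 (0.0011 to 0.87) at 1000 UMIs, 0.030 with high set at 5 UMIs and 0.047 with all UMIs, B2m was 0.44 at 1000 UMIs and 1.53 with high set at 5, and Tapbp 1.81 with high set at 5. In YFP+ cells H2-K1 was 0.23 (-0.05 to 0.52) at 1000 UMIs and 1.60 with high set at 5, where B2m was 0.73 and Tap2 -5.42 with no UMI in high cells, which is no bound. High set at 5 leaves 13 YFP- and 75 YFP+ cells. For class II groups in YFP+ cells, H2-D1 was 0.83 at 1000 UMIs and 0.77 with all UMIs, and B2m 0.33 with all UMIs. For early-response groups at 1000 UMIs, H2-K1 was -0.69 and H2-D1 -0.53 in YFP- cells, and H2-K1 -0.34, B2m 0.012 and Tap2 0.28 in YFP+ cells. With all UMIs, H2-K1 was -0.22 and H2-D1 -0.10 in YFP- cells, and H2-K1 -0.15, B2m -0.11 and Tap2 0.72 in YFP+ cells. The alternative with all UMIs was chosen after seeing the data. The median r of H2-K1, H2-D1 and B2m in YFP- cells was 0.24 at 1000 UMIs, and the span of B2m over clusters was 0.71 (log2) at resolution 0.4. Tap1 and Tap2, with 68 to 269 UMIs per library, are limited by counting throughout.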
